A study of Homo sapiens with 3 samples.

Results

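The comparison of irradiated with untreated T24 cells, the human bladder carcinoma line of the study, rests on 2 of the 3 RNA-seq libraries in the series. The untreated library (Ctrl) is taken to come from cells carrying the control pLKO.1 vector of the paper's methods and not irradiated. The irradiated library (RT) is taken to come from irradiated cells with the same vector. The labels give a dose of 10 Gy, and the paper's methods give a caesium source of gamma rays. The paper's methods describe puromycin selection after infection, so the vector and the selection are taken as shared. The time between irradiation and harvest is not given in the sources used here. The paper's text describes the comparator as parental cells, while its methods describe a control vector. The treatment label of Ctrl reads Empty, which names no vector. The third library, irradiated cells with an shRNA against HDAC6, was not compared here. Of the 58381 genes in the table, 32923 had a count in Ctrl or RT, and 16902 passed a filter of a mean scaled count of at least 20. There was 1 library a side, so no difference has a replicate check, no test was run and no p-value is given.

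Ionising radiation breaks DNA, and cells answer with checkpoint arrest, repair, p53 target transcription, secretion of inflammatory factors and changes in surface receptors. T24 cells are known for an activated HRAS, and RAS signalling through ERK drives immediate early genes and their feedback inhibitors. YAP and TEAD, HIF and NF-kB are further transcription factors that respond to stress, oxygen and cytokines.

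The Ctrl library held 41811165 counts and RT 35959265, on 31034 and 28616 genes. A count of 0 allows up to 0.0718 CPM in Ctrl and 0.0834 CPM in RT, counting 3 reads as the limit. Protein-coding genes took 96.8% and 96.9% of the counts. The log2 ratio given for each gene is RT over Ctrl after TMM scaling, a count of 0 being set to 0.5, and intervals are 95% Clopper-Pearson intervals that cover counting error only, because reads copied by PCR from 1 molecule were not told apart. A gene is called higher or lower where the ratio reached 1.5-fold. By this rule 2660 genes, 15.7% of those that passed the filter, were higher in RT, and 2383, 14.1%, were lower. A 2-fold difference was reached by 4.74% upward and 4.17% downward. Scaling by library totals lowers every log2 ratio by 0.24 and turns the split into 1331 higher and 4273 lower, and upper quartile scaling into 1966 and 3221, so single genes and lists are read here against the median of all genes, which was 0.02. Lists whose median lies between 0 and 0.24 fall under 0 with library totals.

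Several transcripts in both libraries are not those of bladder epithelium, and most of them were at lower ratios in RT. Immunoglobulin gene segments summed to 6747 counts in Ctrl and 3156 in RT, and 46 segments passed the filter, of which 26 were lower and 0 higher, with a median log2 ratio of -0.64. IGHG1, an antibody heavy chain, had 1803 and 821 counts, and JCHAIN, the joining chain made by plasma cells, 329 and 120. Of the 3 plasma cell markers that passed the filter 2 were lower, JCHAIN and PRDM1 (49 and 17), and 1 was higher, SDC1, a syndecan that epithelial cells make too, with 4216 and 6889. The 3 leukocyte markers that passed the filter summed to 349 and 175 counts, the 4 endothelial markers to 1138 and 531 and the 7 fibroblast markers to 18236 and 10148. Log2 ratios of these sums were -0.54, -0.64 and -0.39, and all 14 markers lay below 0. PECAM1, an endothelial adhesion protein, had 489 and 209 counts, DCN, a fibroblast proteoglycan, 1085 and 525, and PTPRC, the leukocyte surface protein CD45, 120 and 66. A list of mammary epithelial transcripts was chosen, like the plasma cell markers and the immunoglobulin segments, after values were seen, and its 13 members that passed the filter summed to 5839 and 2839 counts, a log2 ratio of -0.58. Within it SCGB2A2, the secretoglobin mammaglobin, had 606 and 274 counts. In bulk RNA, fewer cells of a type and less RNA per cell cannot be told apart. The defining urothelial markers UPK1A, UPK1B, UPK2, UPK3A and KRT20 did not pass the filter in these libraries. Of the 14 urothelial carcinoma markers that did, 3 were higher and 4 lower, 11 lay below 0 and the median was -0.45, within the range of the foreign transcripts. CD44 had 42674 and 64681 counts and KRT7 3533 and 3854, while GATA3, the urothelial transcription factor, had 2320 and 1423 and KRT19 950 and 441.

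Genes at low levels were lower in RT in general. Among nuclear protein-coding genes with a mean scaled count from 20 to 50, 42.2% were lower and 8.48% higher, with a median log2 ratio of -0.48. From a mean of 10000 upward, 2.26% were lower and 26.5% higher, with a median of 0.20. Of the 7627 genes with a mean of at least 1000, 1481 were higher and 280 lower, at a median of 0.14. For several lists that follow, the median among members with a mean of at least 1000 is therefore given as well. It is to be read against 0.14 and not against 0.02. The part that the immunoglobulin and other foreign transcripts have in the lower ratios of weakly expressed genes was not tested.

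**Figure D1:**
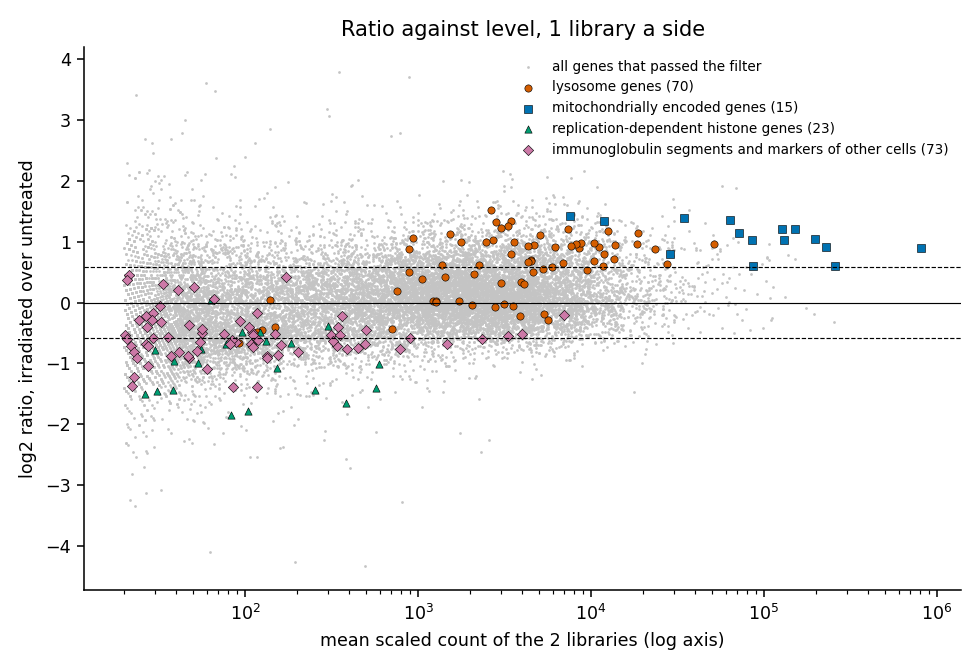
Log2 ratio of irradiated over untreated (vertical) against the mean scaled count of the 2 libraries (horizontal, log axis), 1 point a gene; dashed lines mark 1.5-fold. The 73 immunoglobulin segments and markers of other cells lie mostly below 0, the 23 replication-dependent histone genes lower still, and the 15 mitochondrially encoded genes and most of the 70 lysosome genes above 0.

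**Figure D2:**
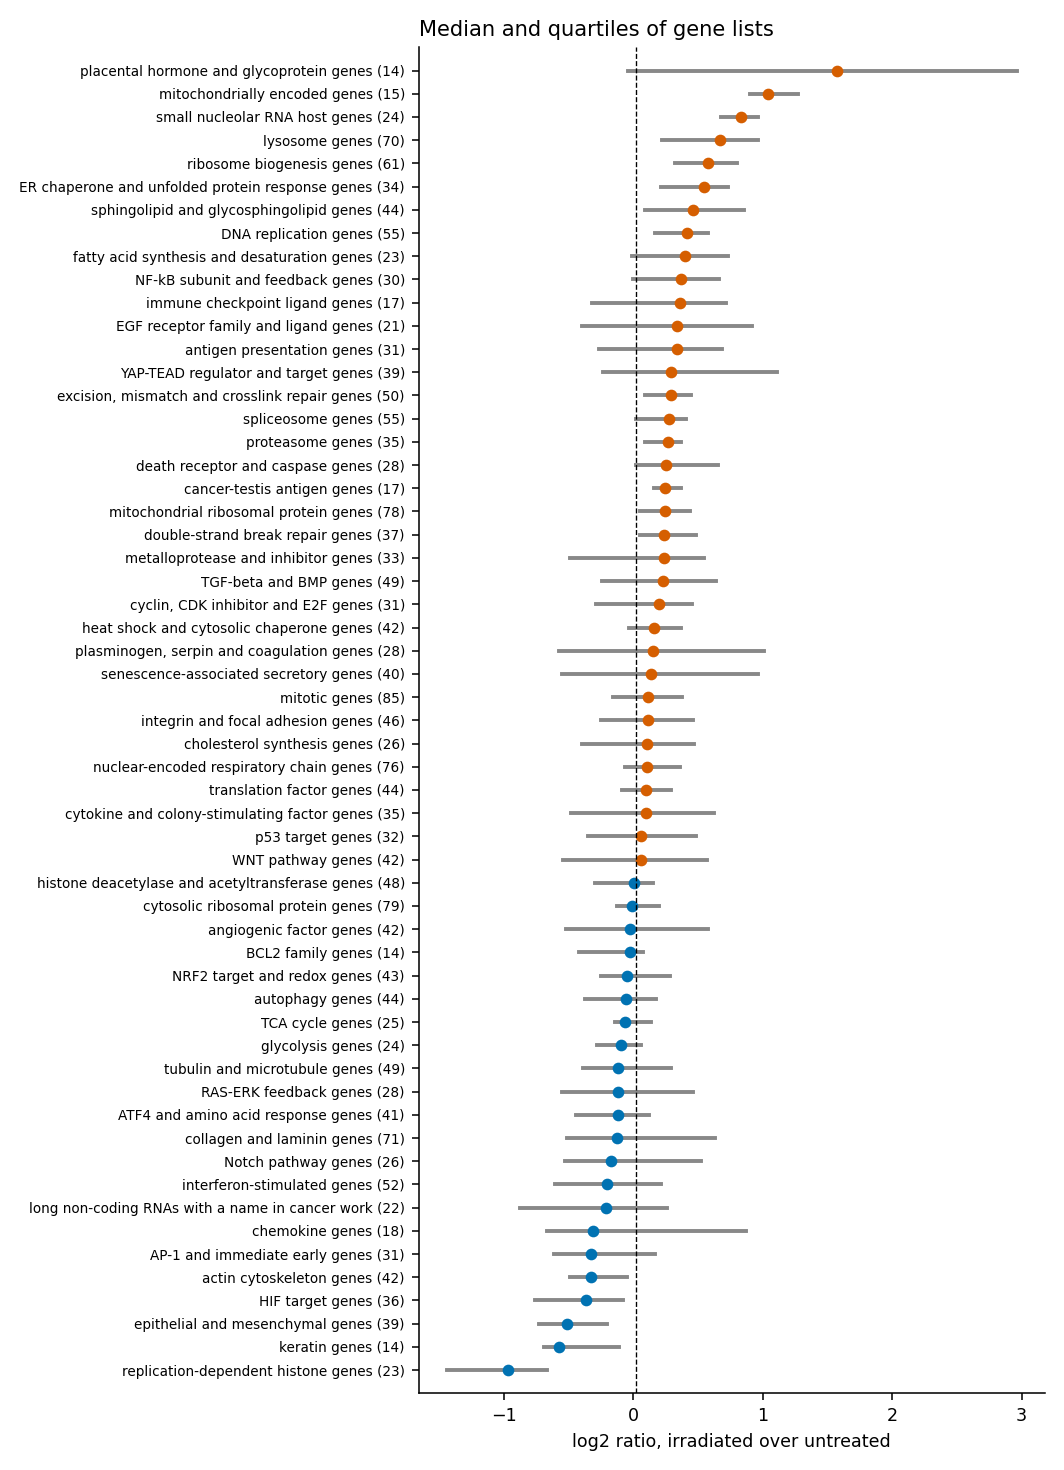
Median log2 ratio (points) and quartiles (bars) of each pathway list with at least 12 members that passed the filter, number of members in brackets; the dashed line is the median of all genes, 0.02. Placental hormone and glycoprotein genes, many of them near-identical copies, have the highest median, 1.57, followed by mitochondrially encoded, small nucleolar RNA host, lysosome and ribosome biogenesis genes, and HIF target, epithelial and mesenchymal, keratin and histone genes stand at the lower end.

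The transcripts of the mitochondrial genome, which encode core subunits of the respiratory chain, were all higher in RT. Their share of all counts was 3.75% in Ctrl and 6.09% in RT. All 13 mRNAs were called, with log2 ratios from 0.80 for MT-ND4L to 1.42 for MT-ND3 (4112 and 7989 counts, interval 1.36 to 1.47). MT-CO1, the catalytic subunit of complex IV, had the largest gain in CPM of any protein-coding gene, with 566870 and 766120 counts. The ribosomal RNAs MT-RNR1 and MT-RNR2 lay lower, at 0.60 and 0.61, and the 7 mitochondrial tRNA genes that passed the filter were all higher, with a median of 1.61. Nuclear-encoded partners did not share the difference. The 76 nuclear respiratory chain genes had a median of 0.11, with 6 higher and 0 lower, and the 78 mitochondrial ribosomal protein genes a median of 0.25, with 11 higher and 1 lower. The lower one was MRPL23, a protein of the large subunit, with 938 counts in Ctrl and 34 in RT. TCA cycle genes, at a median of -0.06, had 1 higher and 1 lower, the latter the cytosolic isocitrate dehydrogenase IDH1 (-0.74).

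Genes for making ribosomes lay above the median of all genes, and ribosomal protein genes did not. Of 61 ribosome biogenesis genes, which act in the nucleolus on pre-ribosomal RNA, 30 were higher and 0 lower, at a median of 0.58. RRS1, an assembly factor of the large subunit, had 886 and 1673 counts (log2 ratio 1.38). NOP56, a core protein of the box C/D particles, had 5105 and 7400, and RRP12 had 3003 and 4413. FBL, the methyltransferase fibrillarin of the same particles, had a log2 ratio of -0.16, and NPM1, nucleophosmin, -0.02. The 79 cytosolic ribosomal protein genes had a median of -0.01, with 5 higher and 0 lower. Among the 5 higher genes were RPL36A, RPS10, RPL17 and RPL26, with counts in Ctrl from 114 to 951, and RPS10 and RPL17 each have over 20% of their exons in common with a second gene of that strand. Translation factor genes were also level, at a median of 0.10, and EEF1A1, an elongation factor, had 283303 and 165187 counts and the largest loss in CPM of any protein-coding gene.

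Small nucleolar RNA host genes, whose introns carry the guide RNAs of ribosomal RNA modification, were higher in 19 of 24 and lower in 0, at a median of 0.84. SNHG17 had 925 and 1797 counts (log2 ratio 1.42), SNHG15 677 and 1257, SNHG12 694 and 1210 and GAS5 4095 and 4805. ZFAS1 had 649 and 1450 counts, with an antisense gene over 36.4% of its exons. SNHG29, the most abundant of them, had a log2 ratio of 0.04 and SNHG14 of -0.02. Of the 40 annotated snoRNA genes that passed the filter, 20 were higher and 3 lower, at a median of 0.61, although mRNA libraries hold few such short RNAs.

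The lysosome list was the largest group with most of its members higher. Of 70 genes, 42 were higher and 1 lower, at a median of 0.67, which was 0.71 for members with a mean of at least 1000. Hydrolases, the enzymes of the lumen, had 31 of 44 higher at a median of 0.80. Among them SMPD1, acid sphingomyelinase, had 1597 and 2925 counts, SGSH 1949 and 3375, ARSB 1803 and 3063, PPT1 7670 and 12604 and CTSL, cathepsin L, 3204 and 5046. CTNS, the cystine exporter of the lysosomal membrane, had 1368 and 2855 (log2 ratio 1.52, interval 1.43 to 1.62), CLCN7, a chloride exchanger, 4442 and 7479, and MCOLN1, the calcium channel TRPML1, 963 and 1522. The transcription factors that drive lysosome genes were not higher, since TFEB had 144 and 77 counts (log2 ratio -0.44) and TFE3 5679 and 3605 (log2 ratio -0.20). Autophagy genes did not follow the lysosome, with 4 of 44 higher, 5 lower and a median of -0.05. ATG9A, a membrane protein of that pathway, had the log2 ratio 0.95, but over 20% of its exons belong to a second gene of that strand as well. GABARAPL1, a ubiquitin-like protein of the autophagosome, had 1801 and 687 counts, the cargo receptor OPTN 6148 and 2550 and the initiation factor RB1CC1 8345 and 3716.

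Promoter windows of lysosome genes were searched for the CLEAR element, spelled TCACGTGA, which reads the same on both strands and contains the ACGTG searched for HIF targets further on. RefSeq windows of 250 bases before the gene start on GRCh38.p14 were available for 48 of the 70 genes, and 8 held it in any of their windows, or 16.7%, against 1.04% of all 27305 genes with a window. Among the 29 higher genes with a window 5 held it, or 17.2%. MCOLN1 is shown as one of these (chr19:7522374-7522623, plus strand), with its 2 matches in capitals.
MCOLN1: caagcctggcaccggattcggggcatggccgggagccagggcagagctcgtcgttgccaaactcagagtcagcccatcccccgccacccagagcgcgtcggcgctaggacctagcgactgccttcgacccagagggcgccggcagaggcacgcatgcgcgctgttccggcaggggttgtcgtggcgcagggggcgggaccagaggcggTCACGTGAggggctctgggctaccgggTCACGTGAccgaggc
The others with the element were LAMP1, CTSA, IGF2R, GALNS, GAA, ATP6V0D1 and ATP6V1G1, with log2 ratios of 0.95, 0.96, 0.89, 0.59, 0.40, 0.34 and -0.02. A match describes the letters of the window only.

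Sphingolipid genes overlap the lysosome list and were higher in 19 of 44, lower in 4, at a median of 0.46, and 0.70 above a mean of 1000. On the side of synthesis, DEGS1, the desaturase that makes ceramide, had 4067 and 7293 counts, the ceramide synthase CERS2 had 8748 and 12079, and UGCG, which makes glucosylceramide, 4709 and 6356. SPHK1, which phosphorylates sphingosine, had 1970 and 3998 (log2 ratio 1.48). ST3GAL5, the GM3 synthase, was lower at -0.75, with 441 and 191 counts.

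Genes of the endoplasmic reticulum (ER) differed among themselves. Of 34 ER chaperone and unfolded protein response genes, 15 were higher and 0 lower, at a median of 0.55. P4HB, protein disulfide isomerase, had 29983 and 39838 counts, HYOU1 39267 and 49613 and ERP29 6575 and 9535. The stress sensors ATF6 and EIF2AK3 had log2 ratios of 0.93 and 0.76, whereas HSPA5, the chaperone BiP, had 0.22, XBP1 0.16, HSP90B1 -0.03 and HERPUD1 -0.31. In a list added after values were seen, genes of the translocon, signal peptidase and oligosaccharyltransferase, which bring new proteins into the ER, cut their signal peptides and add sugars, were higher in 19 of 29 and lower in 0, at a median of 0.76. SEC61A1, the pore of the translocon, had 14090 and 27363 counts (log2 ratio 1.42, interval 1.39 to 1.45), SPCS3 5019 and 8172, STT3A 8815 and 12928 and RPN1 17109 and 23481. Vesicle coat and adaptor genes, soluble proteins that bind the outside of the same membranes and were listed after values were seen, had 1 of 38 higher and 2 lower, at a median of -0.11. SEC23A, a COPII coat subunit, had 6229 and 2909 counts (log2 ratio -0.64, interval -0.70 to -0.57), and CLTC, clathrin heavy chain, had 0.02.

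Other pathways hold both kinds of protein. Members of 8 pathways were divided, after their values had been seen, into those that sit in a membrane or in the ER lumen and those that are soluble. In each of the 8 pathways the median of the membrane members was above that of the soluble members, also after centring on level and GC content. Because the division followed the values, it supports nothing by itself. The vacuolar ATPase is an example within one enzyme. Its membrane sector and accessory subunits had 6 of 8 genes higher at a median of 0.90, with ATP6V0B at 1940 and 3566 counts (log2 ratio 1.34, interval 1.26 to 1.42), while the 8 subunits of the soluble ATP-splitting sector had 0 higher, 0 lower and a median of -0.03, with ATP6V1A at 3634 and 2531 (log2 ratio -0.06, interval -0.14 to 0.01). The lowest membrane member that passed the filter, ATP6V0D1 at 0.34, was above the highest soluble one, ATP6V1D at 0.03. This gap belongs to the same division made with the values known, and is no support for it. Over all genes 15.7% were higher and 14.1% lower. The median transcript GC was 54.4% in the membrane sector and 43.0% in the soluble one, and centring on level and GC content left medians of 0.71 and -0.10.

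Sterol synthesis divided in the same way, with a median of 0.40 for 18 membrane members and -0.45 for 8 soluble ones. SCAP, a membrane escort protein, had 5671 and 7962 counts. The soluble early enzymes HMGCS1 and ACAT2 had log2 ratios of -0.69 and -0.65, with over 20% of their exon length overlapped by a gene on the other strand, and the sterol carrier STARD4 had -0.83. INSIG1 and FDFT1, both of the membrane, were exceptions at -0.57 and -0.51. In fatty acid synthesis the medians were 0.72 and 0.05. The elongase ELOVL1 had 3585 and 5418 counts and the desaturase FADS1 13339 and 16818, the soluble synthase FASN had 0.18, and the membrane desaturase SCD was an exception at -0.42 with 64972 and 35339.

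Among genes of amino acid supply, which ATF4 controls, transporters had a median of 0.93 and soluble enzymes with tRNA synthetases -0.22. SLC3A2 and SLC7A5, the chains of the large neutral amino acid exchanger, had 6093 and 10973 and 22532 and 37031 counts, and SLC1A5, the glutamine carrier, 6950 and 11696. SLC7A11, the cystine carrier, was an exception at -0.01. For the soluble side, GARS1 had -0.59, CARS1 -0.55 and PSAT1 -0.31, while ALDH18A1, of proline synthesis, had 0.81. Peroxide removal had a median of 1.04 for MGST1, PRDX4 and GPX8, which sit in membranes or the ER, and -0.22 for 9 soluble enzymes, among them GPX4, PRDX5 and catalase (CAT) at -0.60, -0.60 and -0.61.

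In signalling pathways the same division gave medians of 0.40 for 12 membrane and -0.19 for 13 soluble members of TGF-beta signalling, 0.62 for 15 and -0.14 for 9 of WNT signalling, and 0.82 for 7 and 0.09 for 17 of the death receptor pathway. ENG, a TGF-beta co-receptor, had 5902 and 11532 counts, TGFBR3 3834 and 6797, LRP5, a WNT co-receptor, 6031 and 9650, FZD6 6022 and 8676 and TNFRSF10A, a receptor of the death ligand TRAIL, 2280 and 3706. SMAD2 had a log2 ratio of -0.38, CTNNB1, beta-catenin, -0.02 and CASP8 -0.00.

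Families gathered by symbol cover more genes. Solute carriers, the largest class of membrane transporters, were higher in 92 of 222 and lower in 14, at a median of 0.38, which was 0.71 above a mean of 1000. Genes named TMEM, for transmembrane protein, were higher in 68 of 165 and lower in 11, at 0.43 and 0.67. Not every membrane family was higher. Tetraspanins had 3 higher and 4 lower of 17, at 0.08, and at 0.40 for the 6 above a mean of 1000. The GALNT glycosyltransferases had 3 higher and 3 lower of 12, at -0.16, and at 0.70 for the 5 above a mean of 1000. RAB GTPases, switches of vesicle traffic, were lower in 16 of 51 and higher in 0, at -0.38 and -0.17. Ubiquitin-conjugating enzymes had 0 higher and 0 lower of 32, at -0.24, kinesins 3 higher and 6 lower of 36, at -0.17, and zinc finger genes 37 and 29 of 453, at 0.08. Other soluble families lay above the median of all genes. EIF initiation factors stood at 0.10, PSM proteasome genes at 0.24, SRSF splicing factors at 0.28 and DEAD and DEAH box helicases at 0.37. The tetraspanin, GALNT, ubiquitin-conjugating, EIF, PSM and SRSF families were added after values were seen. The median transcript GC was 50.3% for solute carriers, 49.4% for TMEM genes, 49.9% for lysosome genes and 47.9% for all genes. After subtracting from each gene the median of nuclear protein-coding genes at the same level and GC content, solute carriers and TMEM genes had a median of 0.39 each, lysosome genes 0.53, translocon and related genes 0.70 and vesicle coat genes -0.27.

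**Figure D3:**
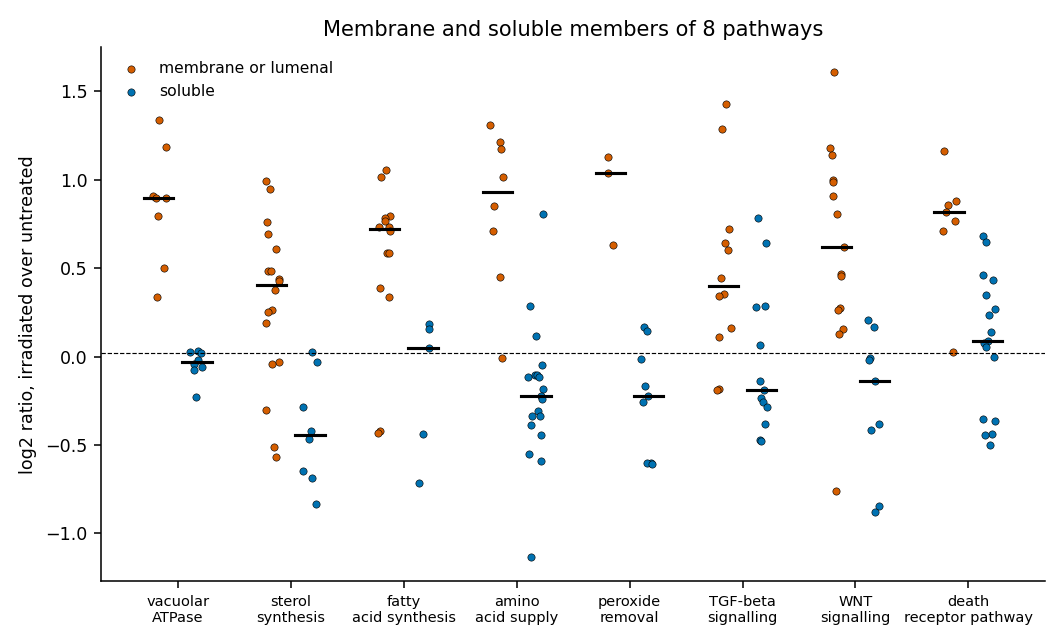
Log2 ratio of irradiated over untreated (vertical) for single genes of 8 pathways (horizontal), orange for members in a membrane or the ER lumen and blue for soluble members; black bars are medians and the dashed line is the median of all genes. Every orange bar lies above the blue bar beside it, from 0.90 against -0.03 in the vacuolar ATPase to 0.82 against 0.09 in the death receptor pathway.

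YAP and TEAD targets were among the largest differences between the libraries. YAP and its relative TAZ bind TEAD factors when the Hippo kinases are inactive and switch on genes of growth and adhesion. Of 24 targets 15 were higher and 0 lower, at a median of 0.85. CCN1, a secreted matrix protein, had 23992 counts in Ctrl and 65788 in RT (log2 ratio 1.92, interval 1.89 to 1.94), and CCN2, its relative, 2726 and 6734 (1.76, interval 1.70 to 1.83). ANKRD1, a muscle-type ankyrin repeat protein, had 396 and 854 (1.57, interval 1.40 to 1.74), AXL, a receptor kinase, 19099 and 39991, FJX1 1138 and 3700, CRIM1 14008 and 33110 and AMOTL2 3379 and 6301. The 15 regulators went the other way, with 1 higher, 4 lower and a median of -0.27. TAZ itself (WWTR1) had 9981 and 3758 counts (log2 ratio -0.95), YAP1 8784 and 5289, the kinase STK3 1275 and 771 and the Hippo scaffold SAV1 1482 and 695.

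The TEAD element was searched as GGAATG on either strand in the 250 bases before the start. It was found in 7 of the 11 higher list members with a window, or 63.6%, in 0 of the 4 lower ones, in 10 of 30 members in all (33.3%), and in 14.3% of all genes with a window. Lists of targets are in part drawn from genes with known elements, so the share is not independent of how the list was made. All 4 lower members were regulators, and 15 of the 16 higher members were targets. The contrast of higher with lower members therefore follows their role in the list and says nothing by itself about the element. CCN2 (chr6:131951373-131951622, minus strand) held 3 matches, of which the farthest began 169 bases before the start, and ANKRD1 (chr10:90921088-90921337, minus strand) held 2, shown in capitals.
CCN2: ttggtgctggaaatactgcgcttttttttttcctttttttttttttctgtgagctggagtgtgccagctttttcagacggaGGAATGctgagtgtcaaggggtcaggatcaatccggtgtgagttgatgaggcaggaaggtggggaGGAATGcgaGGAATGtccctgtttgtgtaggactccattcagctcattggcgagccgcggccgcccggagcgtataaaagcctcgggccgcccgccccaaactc
ANKRD1: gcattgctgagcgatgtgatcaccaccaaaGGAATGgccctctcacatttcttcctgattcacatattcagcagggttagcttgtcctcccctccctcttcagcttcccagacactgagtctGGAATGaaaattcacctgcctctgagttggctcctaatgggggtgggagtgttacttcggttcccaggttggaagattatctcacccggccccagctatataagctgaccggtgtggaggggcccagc
The other higher members with a match were AXL, AMOTL2, NUAK2, AJUBA and TGFB2, at 1.53, 1.36, 1.34, 0.73 and 0.71.

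HIF targets, the genes of the hypoxia response, were divided. Of 36 genes 11 were lower and 4 higher, at a median of -0.37. CA9, a carbonic anhydrase of the cell surface, had 371 counts in Ctrl and 14 in RT (log2 ratio -4.27, interval -5.15 to -3.50), with 35.7% of its exon length overlapped by a gene on the other strand. DDIT4, an inhibitor of mTORC1, had 3907 and 517 (-2.46, interval -2.59 to -2.32), NDRG1 4245 and 646, BNIP3L, a mitophagy receptor, 5364 and 1777, the repressor BHLHE40 11943 and 4202, MXI1 2634 and 956 and VEGFA, the vascular growth factor, 4720 and 2103. The non-coding host of the hypoxia-induced microRNA 210, MIR210HG, had 242 and 50. Those higher in RT were ADM, the peptide adrenomedullin, with 1378 and 3561, the lysyl hydroxylase PLOD1 with 13841 and 21660, the glucose transporter SLC2A1 with 4806 and 7028 and the lactate exporter SLC16A3 with 13363 and 16880. All 4 encode secreted, ER or membrane proteins, but so do CA9 and VEGFA among the lower genes. The 17 glycolytic enzymes had a median of -0.12, with 0 higher and 1 lower, ENO2 at -0.64, and LDHA had 79141 and 40550 counts, a log2 ratio of -0.50.

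The core of the hypoxia response element, ACGTG on either strand, was in the window of 6 of the 7 lower HIF targets that had one, in 1 of the 4 higher, in 19 of 31 members (61.3%) and in 21.7% of all genes with a window. As for TEAD, the list is in part made of genes with known elements. CA9 (chr9:35673678-35673927, plus strand), the lowest of the list, held 1 match, shown in capitals as read on the gene's strand and starting 18 bases before the start.
CA9: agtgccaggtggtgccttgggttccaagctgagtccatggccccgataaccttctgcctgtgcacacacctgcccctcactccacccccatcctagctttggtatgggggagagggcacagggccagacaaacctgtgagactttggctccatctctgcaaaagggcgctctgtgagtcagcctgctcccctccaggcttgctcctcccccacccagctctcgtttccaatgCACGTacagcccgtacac

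NF-kB and the inflammatory ligands differed by gene. CXCL1, a neutrophil attractant, had 183 counts in Ctrl and 884 in RT (log2 ratio 2.73, interval 2.50 to 2.97), CXCL2, its near copy, 60 and 152 (1.80, interval 1.36 to 2.26), CCL20 13 and 37 and CXCL3 46 and 64. Of 18 chemokine and receptor genes 6 were higher and 6 lower. The lower ones named by the rule, CX3CL1 (141 and 53 counts), CXCL12 (291 and 133) and CXCL14 (176 and 81), were at levels where the immunoglobulin and stromal transcripts were lower too, and the part of those cells in them was not tested. Among NF-kB genes 9 of 30 were higher and 4 lower. The subunit RELB had 0.77 and the receptor adaptor TRAF1 1.04, NFKBIA, the classical feedback inhibitor, 0.10, and BCL3, TNFAIP8 and IER3 were lower at -1.23, -0.96 and -0.69.

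The NF-kB element was searched by its consensus on either strand. It was in 4 of the 5 higher chemokine genes with a window and in 0 of the 4 lower, against 2.12% of all genes with a window. In the NF-kB list it was in 13 of 27 members (48.1%), but in only 2 of the 8 higher and 0 of the 3 lower ones. The 4 chemokine genes were CXCL1, CXCL2, CXCL3 and CCL20, of which the CXC genes are neighbouring copies on chromosome 4 that share much of their sequence. Windows of CXCL1 (chr4:73869143-73869392, plus strand) and CXCL2 (chr4:74099196-74099445, minus strand) show the element in capitals in the same surroundings, starting 79 and 78 bases before the start.
CXCL1: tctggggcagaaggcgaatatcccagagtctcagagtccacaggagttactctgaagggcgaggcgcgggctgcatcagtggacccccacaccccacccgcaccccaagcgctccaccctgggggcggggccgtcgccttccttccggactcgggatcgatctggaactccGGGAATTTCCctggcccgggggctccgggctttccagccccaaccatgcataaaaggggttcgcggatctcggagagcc
CXCL2: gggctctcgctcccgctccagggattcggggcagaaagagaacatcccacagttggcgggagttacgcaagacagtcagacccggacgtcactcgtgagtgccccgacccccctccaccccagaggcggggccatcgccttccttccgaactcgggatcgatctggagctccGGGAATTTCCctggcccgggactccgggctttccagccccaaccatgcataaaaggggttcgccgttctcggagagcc

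Other secreted and surface signals went both ways. Of 16 cytokine ligands 4 were higher and 3 lower, of 7 WNT ligands 2 and 3, of 10 WNT antagonists 1 and 4, and of 24 angiogenic ligands 7 and 4. CSF1, the macrophage growth factor, had 3329 and 10791 counts (log2 ratio 2.16, interval 2.10 to 2.21), CLCF1 308 and 671, and 6 of 19 cytokine receptors were higher and 3 lower, with IL15RA at 1.31, IL13RA1 at 0.88 and IL6ST, the shared chain of the IL6 family, at 0.67. INHBA, a chain of activin, had 1345 and 3075 counts, and its antagonists FST and FSTL3 171 and 468 and 361 and 840. DKK1, an inhibitor of WNT receptors and the 1 higher antagonist, had 65 and 396 counts (log2 ratio 3.07, interval 2.69 to 3.47) and WNT5B 2572 and 6140. KIT, the receptor of stem cell factor, had 560 and 1622 (log2 ratio 1.99, interval 1.86 to 2.14), EGFR 10250 and 15120, MET 7752 and 11340 and the ligand FGF5 4551 and 12339. Of 9 EGF family ligands 6 were higher and 1 lower, with HBEGF at 1539 and 2137 and AREG at 223 and 101. PDGFB and HGF were lower, at 257 and 54 and 130 and 42 counts.

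Of 40 genes associated with the senescence secretome, 17 were higher and 10 lower, at a median of 0.13, and at 0.73 for the 16 with a mean of at least 1000. IGFBP3, a binding protein of insulin-like growth factors, had 1306 and 3600 counts, PLAU 8514 and 13592 and TIMP1 3633 and 5133. Lower members were GDF15 (679 and 178), STC1 (1376 and 404), IGFBP5 (1425 and 628) and PLAT (1773 and 829). Outside that list, PLAUR, the receptor of PLAU, had 3754 and 6488. TFPI2, a protease inhibitor of the matrix, and F3, tissue factor, also outside it, had 2802 and 6309 and 1353 and 2106. Matrix genes were divided by gene and level. Among 71 collagen, laminin and related genes 18 were higher and 14 lower, with a median of -0.13 overall and 0.48 for 40 above a mean of 1000. Higher were the collagen chaperone SERPINH1 (2815 and 6829), the lysyl hydroxylase PLOD3 (4849 and 9424), LAMB3 (16996 and 31321), LAMA1 (1876 and 3366), COL18A1 (19635 and 29728) and COL6A2 (17525 and 23454), and lower were LAMA5 (26159 and 11244) and, near the amount of the fibroblast markers DCN and LUM, COL4A2 (-0.61), COL5A1 (-0.61), COL11A1 (-0.69) and COL15A1 (-0.88). The contribution of fibroblast RNA to these collagens was not tested.

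Immune recognition genes split by class. Of 12 antigen processing genes 5 were higher and 0 lower, and of 6 class I chains 4 were higher. The whole list of 31 antigen presentation genes had a median of 0.34, and 0.69 for the 14 with a mean of at least 1000. TAP2, a chain of the peptide pump of the ER, had 2504 and 4839 counts (log2 ratio 1.41, interval 1.34 to 1.48), TAP1 1832 and 2757, the trimming protease ERAP1 3467 and 5363 and B2M 16608 and 18764. HLA-B had -0.18, with over 20% of its exons in a second gene too. The NKG2D ligand MICA had 2671 and 3818 and ULBP1 133 and 45. Class II genes, which belong to antigen-presenting cells, were at a median of -0.57, with HLA-DRA at 1041 and 505 and CD74 at 1834 and 830, beside the leukocyte and immunoglobulin values given above; their part was not tested. The checkpoint ligands CD274 (PD-L1) and PVR had 595 and 1072 (log2 ratio 1.31, interval 1.16 to 1.46) and 2397 and 4639, and 7 of 17 such genes were higher and 2 lower. Interferon-stimulated genes did not follow class I. Of 52, 3 were higher and 15 lower, at a median of -0.20. For the 15 with a mean of at least 1000 it was 0.11, beside 0.14 for all genes at that level. OAS3 had a log2 ratio of 0.53, while IFIT1 had 670 and 241, OASL 176 and 56, GBP2 658 and 263 and SAMD9 1554 and 737.

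The p53 targets gave no common direction. Of 32 genes 8 were higher and 5 lower, at a median of 0.06. CDKN1A, the cell cycle inhibitor p21, had 2793 counts in Ctrl and 1441 in RT (log2 ratio -0.49, interval -0.59 to -0.40), and MDM2, a ubiquitin ligase, 4174 and 2637 (-0.20, interval -0.27 to -0.13). GADD45A had 1061 and 1678 (1.12, interval 1.01 to 1.23), the nuclease AEN 1187 and 1782, FAS 421 and 564 and TNFRSF10B, a TRAIL receptor, 4281 and 5084. BBC3, the BH3-only protein PUMA, had 235 and 59 (-1.53, interval -1.97 to -1.12), BMF, another of that group, 146 and 37, and CCNG1 5902 and 2323. Of the 7 cyclin-dependent kinase inhibitors that passed the filter 1 was higher and 2 lower, with CDKN2B at 2037 and 533 (log2 ratio -1.47, interval -1.61 to -1.34), CDKN2D at 465 and 162 CDKN2A at 2374 and 1486, CDKN1B at 2725 and 2092 and CDKN2C, the higher one, at 1291 and 1438, with an antisense gene over about 20% of its exons.

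**Figure D4:**
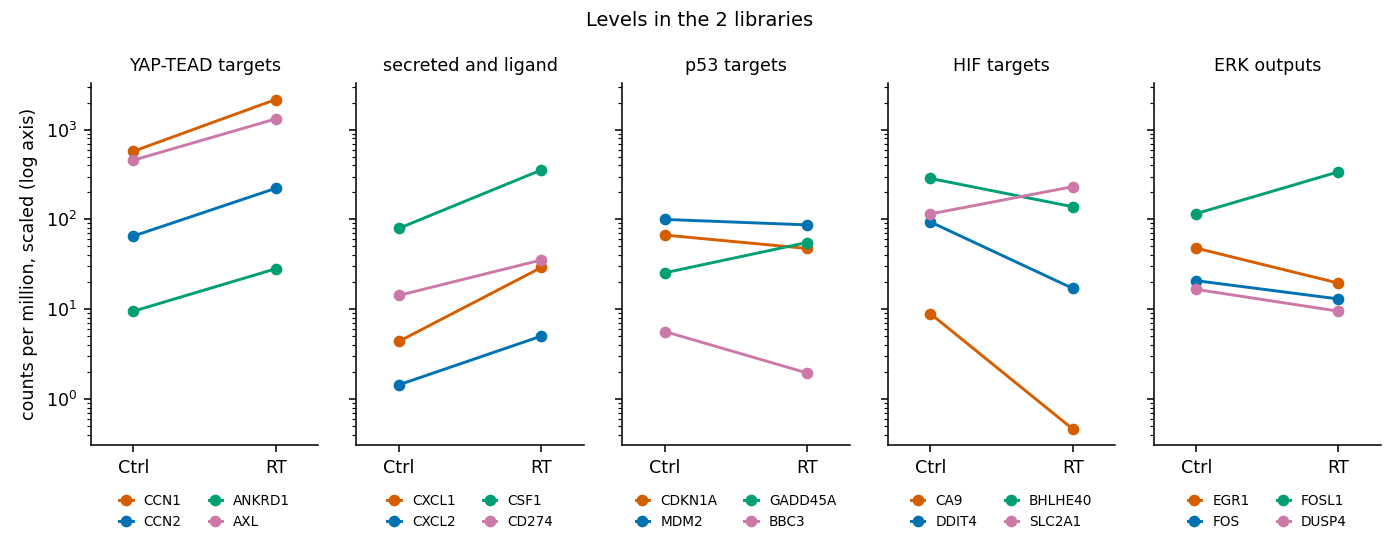
Scaled CPM (vertical, log axis) of 20 genes in the untreated (Ctrl) and irradiated (RT) libraries, 1 library each, joined by lines that carry no error. The 4 YAP-TEAD targets lie higher in RT, CA9, DDIT4 and BHLHE40 lower, CDKN1A slightly lower and GADD45A higher, and FOSL1 goes against EGR1, FOS and DUSP4.

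Replication genes were slightly higher as a group and mitotic genes were not. Of 55 DNA replication genes 14 were higher and 0 lower, at a median of 0.42. RRM2, a subunit of ribonucleotide reductase, had 4172 and 5804 counts (0.94, interval 0.88 to 0.99), CAD, of pyrimidine synthesis, 9128 and 13055, ORC6 2594 and 3507, POLD1 3875 and 4757 and MCM7 13421 and 14997, while MCM6 had -0.22. Crosslink repair genes had a median of 0.44, with FANCA and FANCD2 at 0.73 and 0.72, homologous recombination genes 0.40, with XRCC2 at 4034 and 5382, and break sensing and signalling genes 0.13 with 0 of 13 called. XRCC4, of end joining, was the one lower repair gene of those lists, at 1476 and 650. Of 85 mitotic genes 11 were higher and 1 lower, at a median of 0.12. PKMYT1, the kinase that holds CDK1 inactive, had 1677 and 3894 (1.68), with 31.9% of its exon length overlapped by a gene on the other strand, and CDK1 had 4133 and 4902. CCNB1, CCNB2 and PTTG1, which peak at mitosis, had -0.50, -0.56 and -0.57, CENPF -0.48 and the kinesin CENPE, the lower one, -0.69 with 8539 and 3850 counts.

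Replication-dependent histone genes, whose mRNAs end in a stem loop and carry no poly(A) tail, were lower in 19 of 23 and higher in 0, at a median of -0.96. H2AC6 had 823 and 227 counts (log2 ratio -1.40, interval -1.62 to -1.18), H2BC21 585 and 135 and the linker histone H1-2 794 and 287. None reached a mean of 1000, and after centring on level and GC content the median of the list was -0.51. The signal recognition particle RNAs RN7SL2 and RN7SL3, also without a tail, had 1459 and 109 and 183 and 23, and both can share reads with their copies. The other 3 small RNAs of that list that passed the filter lay between -0.54 and 0.11. Genes of snoRNAs, which have no tail either, were higher in 20 of 40 and lower in 3. Whether their counts came from the mature short RNAs was not tested. How completely each library was selected for tails was not tested.

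Genes downstream of RAS and ERK went both ways. EGR1, an immediate early factor, had 1999 and 592 counts (log2 ratio -1.30, interval -1.43 to -1.16), FOS 867 and 394, JUND 1940 and 685, ATF3 399 and 154 and NR4A2 413 and 180. FOSL1, a later AP-1 subunit, had 4843 and 10288 (log2 ratio 1.55), and was the 1 higher gene of 31 in that list, against 8 lower. The median of that list was -0.33, and -0.04 for the 16 with a mean of at least 1000. Of 28 ERK feedback genes 7 were higher and 6 lower. ERRFI1, which binds EGF receptors, had 26258 and 10616, SPRED3 474 and 144, SPRED2 3782 and 1787 and the phosphatase DUSP4 693 and 288. DUSP6 had 0.00 and DUSP7 0.61, so the phosphatases differed among themselves. In the stress and tRNA charging arm of ATF4 7 of 23 genes were lower and 1 higher, with ATF4 at 9375 and 4325 (-0.66, interval -0.71 to -0.60), CHAC1, which degrades glutathione, at 472 and 79 (-2.12, interval -2.48 to -1.77) and CEBPG at 1627 and 870, beside the transporters of the same list that were higher. NRF2 targets had a median of -0.01, with 4 of 23 higher and 0 lower. Genes of peroxide and lipid peroxide removal had 4 of 20 higher and 6 lower, at a median of -0.15. The highest of these, TFRC, the transferrin receptor, had 15250 and 32998 counts (log2 ratio 1.57).

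Epithelial genes lay below the median of all genes, and cytoskeleton genes differed by family. Of 24 epithelial genes 10 were lower and 2 higher, at a median of -0.52. Together with the mesenchymal genes the median was -0.51, and -0.10 for the 12 with a mean of at least 1000, and for keratins it was -0.57, and 0.29 for the 4 at that level. JUP, plakoglobin, had 3367 and 815 counts (-1.59, interval -1.70 to -1.48), PPL, periplakin, 924 and 153 and PKP3 624 and 254, whereas CLDN1 had 1982 and 3894 and OCLN 3259 and 3823. CLDN4, DSG2, GRHL2 and KRT5, KRT14, KRT15 and KRT17 were at under 700 counts in Ctrl and between -0.43 and -0.96, the range that the mammary and immunoglobulin transcripts also held, and the part of other cells in them was not tested. The mesenchymal factors SNAI2 and SNAI1 had -0.72 and -0.88 and CDH2, N-cadherin, 6788 and 8613. Integrins ITGA6 (46890 and 68192) and ITGA3 (39457 and 51715) and the tetraspanin CD151 (8672 and 14193) were higher and ITGB4 (9774 and 3672) was lower. Actin cytoskeleton genes had a median of -0.33, with 7 of 42 lower, or 16.7% against 14.1% of all genes, and 2 higher. ACTG1 had 113337 and 61370 counts, the filament capper GSN 3309 and 1299, TMSB4X, which holds free actin, 7502 and 3207 and CNN2 8339 and 3875, while EZR, ezrin, had 16296 and 19478. Of 16 tubulins 4 were higher and 3 lower, at a median of 0.29. TUBB had 77498 and 94655 and TUBA1A 10442 and 4038, and HDAC6, the deacetylase of tubulin that the third library targets, had 3098 and 2383 (log2 ratio 0.08, interval 0.00 to 0.16, and -0.16 with library totals).

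The largest single differences came partly from gene families with near-identical copies. The placental list had 7 of 14 higher and 1 lower, at a median of 1.57, all 7 being chorionic gonadotropin or pregnancy-specific glycoprotein genes. CGB8 and CGB5, chains of chorionic gonadotropin, had 125 and 1193 and 32 and 143 counts, PSG1 and PSG4, pregnancy-specific glycoproteins, 34 and 179 and 199 and 999, and reads could be split among their copies. Among the 15 protein-coding genes with the largest positive ratios were also SLC19A1, the folate carrier (2146 and 6502), TNFRSF12A, the TWEAK receptor (2975 and 8938), PXYLP1 (1272 and 4021), SUSD5 (1368 and 4079), BMPER (30 and 104) and CYP27B1 (179 and 526). Among those with the largest negative ratios were MILR1 (701 and 77), DEPP1 (653 and 80), RAB26 (201 and 25), TCP11L2 (476 and 72) and ZC3H6 (306 and 55). RESF1, a regulator of retroelement silencing, had 25971 and 6791, a loss of 398 CPM.

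Gene classes differed as well. Of 1824 lncRNAs 308 were higher and 374 lower, at a median of -0.00. For the 86 with a mean of at least 1000 it was 0.18, beside 0.14 for all genes at that level. After centring on level and GC content the median of the 1824 lncRNAs was 0.31. NEAT1, the scaffold of paraspeckles, had 26067 and 9568 counts (-0.99, interval -1.02 to -0.95), LUCAT1 787 and 173 and PURPL 2231 and 754, while UCA1, named for urothelial carcinoma, had 458 and 1133 (1.77), with 26.1% of its exon length overlapped by a gene on the other strand. Processed pseudogenes, copies of mRNAs that share reads with their parents, had 55 higher and 239 lower of 947, at a median of -0.30, which was 0.06 above the level- and GC-matched median of protein-coding genes once that was subtracted.

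Sequence composition and gene length also went with the ratio. Among nuclear protein-coding genes with a mean of at least 1000, the median log2 ratio was -0.11 for 114 genes with transcript GC under 35% and 0.43 for 186 genes with 65% or more, and 7.02% and 2.69% of them were lower. By gene length the median was -0.05 for 52 genes under 2000 bases, 0.29 from 2000 to 10000 bases and -0.06 for 207 genes of 300000 bases or more. The part of GC content and of length in single genes was not tested beyond the centring described.

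**Figure D5:**
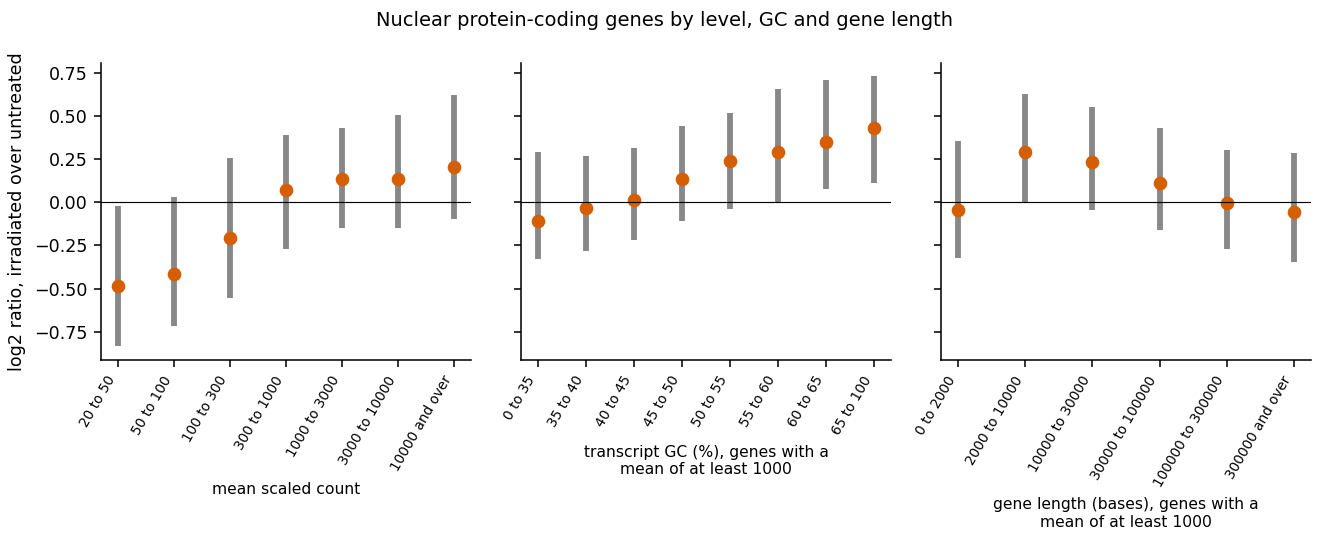
Median log2 ratio (points) and quartiles (bars) of nuclear protein-coding genes by mean scaled count (left), transcript GC content (middle) and gene length (right), the last 2 for genes with a mean of at least 1000. The median goes from -0.48 to 0.20 with level and from -0.11 to 0.43 with GC content, and by length it is -0.05 under 2000 bases, 0.29 from 2000 to 10000 and -0.06 from 300000 upward.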

How the data were processed

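RNA of the Ctrl and RT libraries was sequenced as stranded mRNA, with TruSeq reagents per the labels and another kit in the paper's text. After trimming in cutadapt, the authors mapped reads on GRCh38 using STAR (2.6.1a in the submitters' processing notes) and counted them per gene of GENCODE release 28 in featureCounts. The deposited values are raw read counts. Strand setting and handling of multiply mapped reads are not given in the sources used here.

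Of 58381 identifiers, 57799 matched GENCODE release 44, the source of symbols, types and positions. Counts were scaled by TMM in edgeR 4.0.16 (R 4.3.3), and ratios, intervals and motif searches used Python 3.11.15 with pandas 2.3.3 and scipy 1.17.1. Genes with a mean scaled count of at least 20 were kept, and 1.5-fold was the call. With 1 library a side no count test could be run, and the study's NOISeq, which simulates noise, was not used. The steps were tested on simulated data. Values of some named members are not reported here. Members and lists were chosen with earlier results of these data known. Named genes are defining members by role, HDAC6 and markers, the 15 largest protein-coding positive and negative ratios and, per list, up to 5 of each with at least 100 counts in a library; others, such as CCL20, CXCL3 and TCA cycle and lysosome members with a motif, were named after values were seen. Alternatives were other scalings, filters, zeros, a 2-fold rule and, chosen after seeing the data, a mean of at least 1000 and centring on 7 bins of level by 6 of GC content.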

Additional observations from a re-analysis of the deposited data

How the results depend on the processing

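Counts of called genes depended on scaling and filter. Library totals gave 1331 higher and 4273 lower in place of 2660 and 2383. Without the filter, 6503 and 7618 of 32923 genes were called. A mean of at least 100 left 999 lower, a mean of at least 1000 (chosen after seeing the data) 1481 higher and 280 lower, a 2-fold rule 801 and 704, and centring on level and GC content (also chosen later) 1544 lower. Median-of-ratios scaling, TMM on protein-coding nuclear genes, upper quartile scaling and zeros set to 1 kept both counts within 1.5 times.

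List medians, taken less the median of all genes, stayed inside their interval for all 57 lists under the 4 scalings and with zeros set to 1. Subtracting the median of all genes removes most of a change of scaling, so the result under the 4 scalings was nearly fixed in advance. Calls of single genes moved more. Among 2091 list members and genes with the largest differences, 674 were called. Of these, 205 lost the call under library totals and 107 under upper quartile scaling, and 0 changed sign. Other settings kept inside their interval 53 of 57 list medians at a mean of at least 100 and 42 of 57 without the filter. At a mean of at least 1000 it was 38 of 53, and after centring 47 of 57. Where the main interval left out the median of all genes, the side changed at a mean of at least 1000 for mitotic genes (-0.0333), heat shock and cytosolic chaperone genes (-0.00157), zinc finger genes (-0.0193) and protein-coding genes as a class (-0.000236), without the filter for vesicle coat and adaptor genes (0.00859), and after centring for antisense-named non-coding RNAs (0.182) and processed pseudogenes (0.0553). Other medians, with that median inside their interval, also changed side: 2 of 114 lists, families and classes under library totals (senescence-associated secretory genes -0.0100, misc_RNA -0.122), 1 under upper quartile scaling (misc_RNA -0.0380), 21 without the filter, 7 at a mean of at least 100, 9 at a mean of at least 1000 and 12 after centring. The cause was not tested. No paired analysis was possible because each condition has 1 library, and no replicate could be left out. Depth limits single genes under about 100 counts, whose intervals are wide, and the variation between replicate libraries is not known.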

Other observations

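Cancer-testis antigens, germ cell proteins that tumours can express, lay above the median of all genes, 0.02. Of 17 that passed the filter, 2 were higher in RT and 0 lower, at a median of 0.25, with MAGEA3 at 2869 counts in Ctrl and 3037 in RT and MAGEC2 at 4580 and 4295. Nuclear pore and import genes, listed after values were seen, had 5 of 36 higher and 0 lower, at a median of 0.20, led by the import receptor TNPO2 at 6886 and 9346. Proteasome genes had 1 of 35 higher and 0 lower, at 0.27, and spliceosome genes 4 of 55 and 0, at 0.27. Shares higher in these lists, 11.8%, 13.9%, 2.86% and 7.27% in turn, were under the 15.7% of all genes. For nuclear pore, proteasome and spliceosome members with a mean of at least 1000 the medians were 0.20, 0.25 and 0.26, beside 0.14 for all genes at that level. After centring on level and GC content they were 0.16, 0.12 and 0.07, and 0.25 for cancer-testis antigens. Cytosolic chaperones had 5 of 42 higher and 1 lower, with HSPA8, the constitutive HSP70, at 63243 and 68586 and HSPB1, a small heat shock protein, at 5131 and 2887. Protocadherins were higher in 9 of 39 and lower in 2, at 0.25, and DEAD and DEAH box helicases in 17 of 51 and lower in 2, at 0.37. The 25 HOX genes had a median of 0.19.

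Of 26 Notch pathway genes 5 were higher and 4 lower, at a median of -0.17, and of the 8 receptors and ligands 2 were higher and 0 lower, at -0.41. The gamma-secretase subunit NCSTN had 5990 and 9206 counts, NOTCH2 28656 and 38106 and the ligand JAG1 1651 and 2186, while RBPJ had a log2 ratio of -0.30 and MAML3, with 253 and 79 counts, -1.22.

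Among chromatin enzymes, 1 of 18 deacetylases was higher and 3 lower. HDAC9 had 304 and 351 counts (0.67) and HDAC5 1576 and 624 (-0.88), with over 20% of its exon length overlapped by a gene on the other strand. The acetyltransferase KAT2A had 3004 and 4458 and the corepressor subunit TBL1XR1 7702 and 3216.

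Immunoglobulin segments were also present in the third library of the series, at 118 CPM, against 161 in Ctrl and 87.8 in RT. By chromosome, the median log2 ratio of protein-coding genes went from -0.02 on chromosome X to 0.18 on chromosome 16, and was 1.14 for the mitochondrial genome.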
